A study of Mus musculus with 17 samples.

Results

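The genes that write, erase and read DNA methylation were followed in mouse cortex. They were chosen by symbol as the rows for Dnmt1, Dnmt3a, Dnmt3b, Tet1, Tet2, Tet3, Mbd1, Mbd2 and Mbd3, which are 9 of the 55453 distinct symbols in the RNA table, and all 9 were present in it. RNA was taken from dissected bulk cortex. The 17 mice were C57BL/6J males and made up 6 groups, and each gene was compared over all 6 groups and both ages. The first line held hemizygous Hnrnph2 KO mice (n = 3) and wild-type mice labeled KO Control (n = 3), and the second held hemizygous Hnrnph2 R206W mice (n = 3) and wild-type R206W Control mice (n = 3), all of them 8 weeks old. The third line held hemizygous Hnrnph2 P209L mice (n = 3) and wild-type P209L Control mice (n = 2 analysed here), all of them 3 weeks old. Hnrnph2 is an X-linked gene for an RNA-binding protein, and R206W and P209L are single amino acid substitutions knocked into its nuclear localization signal. The study describes more than 1 KO line. The line that it calls KO has a small insertion or deletion that brings an early stop codon, on a C57BL/6J background. The other is a repository line with a larger deletion, on a C57BL/6NJ background. The labels do not name the line sequenced, but the strain C57BL/6J is that of the line the study calls KO. Because every 3-week mouse belonged to the P209L line, age and line cannot be told apart in this material.

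DNA methylation in mammals is written mainly on the cytosine of CG dinucleotides. Dnmt3a and Dnmt3b set new marks, and Dnmt1 copies existing marks onto the new strand after replication. The Tet enzymes oxidize methylcytosine, which opens a path to its removal, while Mbd1 and Mbd2 are proteins that bind methylated CG and Mbd3 is a close relative of Mbd2 that joins the NuRD chromatin remodeling and deacetylase complex but binds methylated DNA poorly. In the postnatal cortex, neurons gain a large amount of methylation, including outside CG, for which Dnmt3a is the known enzyme. The values below are RNA levels in bulk tissue, in which fewer cells of a type and less RNA per cell cannot be told apart, and no methylation was measured in the table.

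RefSeq promoter windows (GRCm38.p6, 250 bases before to 50 bases after a start site) were at hand for 7 of the 9 genes, in 11 windows, 10 of which held more CG, the dinucleotide on which the products of these genes act, than the median window of all genes. The 4 windows printed here are those of Tet3 and Tet2 among the erasers and Dnmt3a and Dnmt1 among the writers, whose levels relative to each other are followed within each mouse below; no window was at hand for Mbd2, so the readers are not shown. They run 5′ to 3′ on the strand of the gene, with each CG in capitals. The Tet3 window lies at chr6:83441629-83441928 on the minus strand, that of Tet2 at chr3:133544341-133544640 on the minus strand, that of Dnmt3a at chr12:3806730-3807029 on the plus strand and that of Dnmt1 at chr9:20952574-20952873 on the minus strand.
Tet3: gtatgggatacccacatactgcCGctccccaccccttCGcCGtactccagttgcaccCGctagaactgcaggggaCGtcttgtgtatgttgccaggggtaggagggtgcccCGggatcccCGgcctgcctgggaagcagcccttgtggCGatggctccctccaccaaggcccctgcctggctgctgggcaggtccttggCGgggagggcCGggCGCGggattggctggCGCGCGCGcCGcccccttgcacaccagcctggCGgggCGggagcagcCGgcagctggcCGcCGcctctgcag
Tet2: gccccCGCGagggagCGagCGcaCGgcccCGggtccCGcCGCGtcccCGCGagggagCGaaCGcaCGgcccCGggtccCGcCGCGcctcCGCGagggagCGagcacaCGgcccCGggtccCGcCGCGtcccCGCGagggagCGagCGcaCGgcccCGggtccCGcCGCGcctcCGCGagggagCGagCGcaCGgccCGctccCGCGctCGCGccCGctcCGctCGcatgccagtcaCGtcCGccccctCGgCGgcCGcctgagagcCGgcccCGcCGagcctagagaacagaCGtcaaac
Dnmt3a: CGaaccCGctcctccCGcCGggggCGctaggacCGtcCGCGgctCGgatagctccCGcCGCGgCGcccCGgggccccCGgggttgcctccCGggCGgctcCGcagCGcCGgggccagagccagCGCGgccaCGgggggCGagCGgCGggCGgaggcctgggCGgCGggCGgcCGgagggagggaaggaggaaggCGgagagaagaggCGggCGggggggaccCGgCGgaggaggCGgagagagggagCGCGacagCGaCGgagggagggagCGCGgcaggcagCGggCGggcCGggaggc
Dnmt1: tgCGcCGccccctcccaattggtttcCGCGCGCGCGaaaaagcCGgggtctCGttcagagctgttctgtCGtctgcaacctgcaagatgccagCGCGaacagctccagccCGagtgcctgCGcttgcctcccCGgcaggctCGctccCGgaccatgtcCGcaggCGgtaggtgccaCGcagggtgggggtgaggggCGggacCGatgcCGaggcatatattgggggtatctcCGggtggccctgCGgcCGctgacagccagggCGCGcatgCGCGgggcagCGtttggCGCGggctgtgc
The Tet3 window held 22 CG, more than 76.9% of all 32851 windows of this length, whose median was 7. The Tet2 window held 57 CG and the Dnmt3a window shown 46, more than 99.8% and 98.4% of all windows. Of the Dnmt3a windows not shown, one that overlaps it held 47. The other, at chr12:3891494-3891793, held 18, more than 70.3% of all windows. The Dnmt1 window shown held 33 CG. Farther upstream, the window at chr9:20952930-20953229 held 12, and that of the farthest start, at chr9:20959839-20960138, held 2. The motif GGGCGG, searched on both strands, overlaps CG and occurred in 35.7% of all windows, and it occurred 2 times in the Tet3 window, once in the Tet2 window, 6 times in the Dnmt3a window and 2 times in the Dnmt1 window shown. These matches describe the letters only, and which start site was used in cortex was not measured.

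By GENCODE M21 (GRCm38), the writers were Dnmt1 (ENSMUSG00000004099.16, chromosome 9, 20907209 to 20959888, minus strand), Dnmt3a (ENSMUSG00000020661.15, chromosome 12, 3806007 to 3914443, plus strand) and Dnmt3b (ENSMUSG00000027478.15, chromosome 2, 153649450 to 153687730, plus strand). The erasers were Tet1 (ENSMUSG00000047146.17, chromosome 10, 62804570 to 62908996, minus strand), Tet2 (ENSMUSG00000040943.12, chromosome 3, 133463679 to 133545139, minus strand) and Tet3 (ENSMUSG00000034832.15, chromosome 6, 83362373 to 83459084, minus strand). Of the readers, Mbd3 (ENSMUSG00000035478.14) lies on chromosome 10, 80392539 to 80399550, minus strand, and Mbd1 and Mbd2 lie on chromosome 18. The antisense genes that overlap exons of Tet2 (Gm42567) and Dnmt3a (Dnmt3aos) had mean levels of 0.0624 and 0.0024 TPM, and the Dnmt3a pseudogene Dnmt3a-ps1 was listed at 0 in each mouse.

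The unit is TPM, a gene's transcripts out of 1000000 after correction for transcript length, so that levels of different genes can be set side by side but the sequencing depth is unknown. Hnrnph2 was at 23.5, 21.3 and 24.4 TPM in the 3 KO mice and between 80.5 and 145 TPM in their controls, between 135 and 160 TPM in R206W and its controls, and between 81.6 and 103 TPM in the P209L line. The excitatory neuron marker Slc17a7 was between 495 and 912 TPM in every mouse, as the label of cortex calls for. KO Control 1 stood apart, with 20.1% of its TPM from mitochondrial genes against 10.7% to 15.4% in the other 16 mice. P209L Control 2 held Ttr, a choroid plexus gene, at 1740 TPM, against at most 23.2 TPM in the 8-week mice. No columns were identical, and nothing in the labels says more on how replicates were taken than that they are separate samples, so p-values measure the spread between them.

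Mbd3 was the most abundant of the 9 genes and Dnmt3b the least at both ages. At 8 weeks the mean over 12 mice was 99.0 ± 6.60 TPM (SD, n = 12) for Mbd3 and 44.9 ± 4.01 TPM for Mbd2. Mbd1 (29.0 ± 3.40 TPM), Dnmt3a (29.0 ± 3.94 TPM) and Tet2 (27.1 ± 1.88 TPM) came next and did not differ beyond their spread. Mbd1 exceeded Dnmt3a in 5 of 12 mice and Dnmt3a exceeded Tet2 in 9 of 12, and Tet2 exceeded Tet3 in 11 of 12. They were followed by Tet3 (22.3 ± 5.27 TPM), Dnmt1 (17.5 ± 3.97 TPM), Tet1 (4.29 ± 0.753 TPM) and Dnmt3b (0.448 ± 0.120 TPM), each above the next in all 12 mice.

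The order at 3 weeks was not the same. Dnmt3a stood second with 34.9 ± 3.89 TPM (SD, n = 5), above Mbd2 (30.4 ± 3.79 TPM) in 5 of 5 mice, whereas at 8 weeks Mbd2 was the second gene in all 12 mice. Tet3 (10.8 ± 1.95 TPM) was below Dnmt1 (13.14 ± 1.151 TPM) in 4 of 5 mice at 3 weeks. Mbd2 and Mbd1 (26.5 ± 1.48 TPM) overlapped at this age, as did Mbd1 and Tet2 (25.3 ± 4.37 TPM), and Tet1 (3.14 ± 0.631 TPM) and Dnmt3b (0.604 ± 0.193 TPM) closed the order as they did at 8 weeks.

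**Figure D1:**
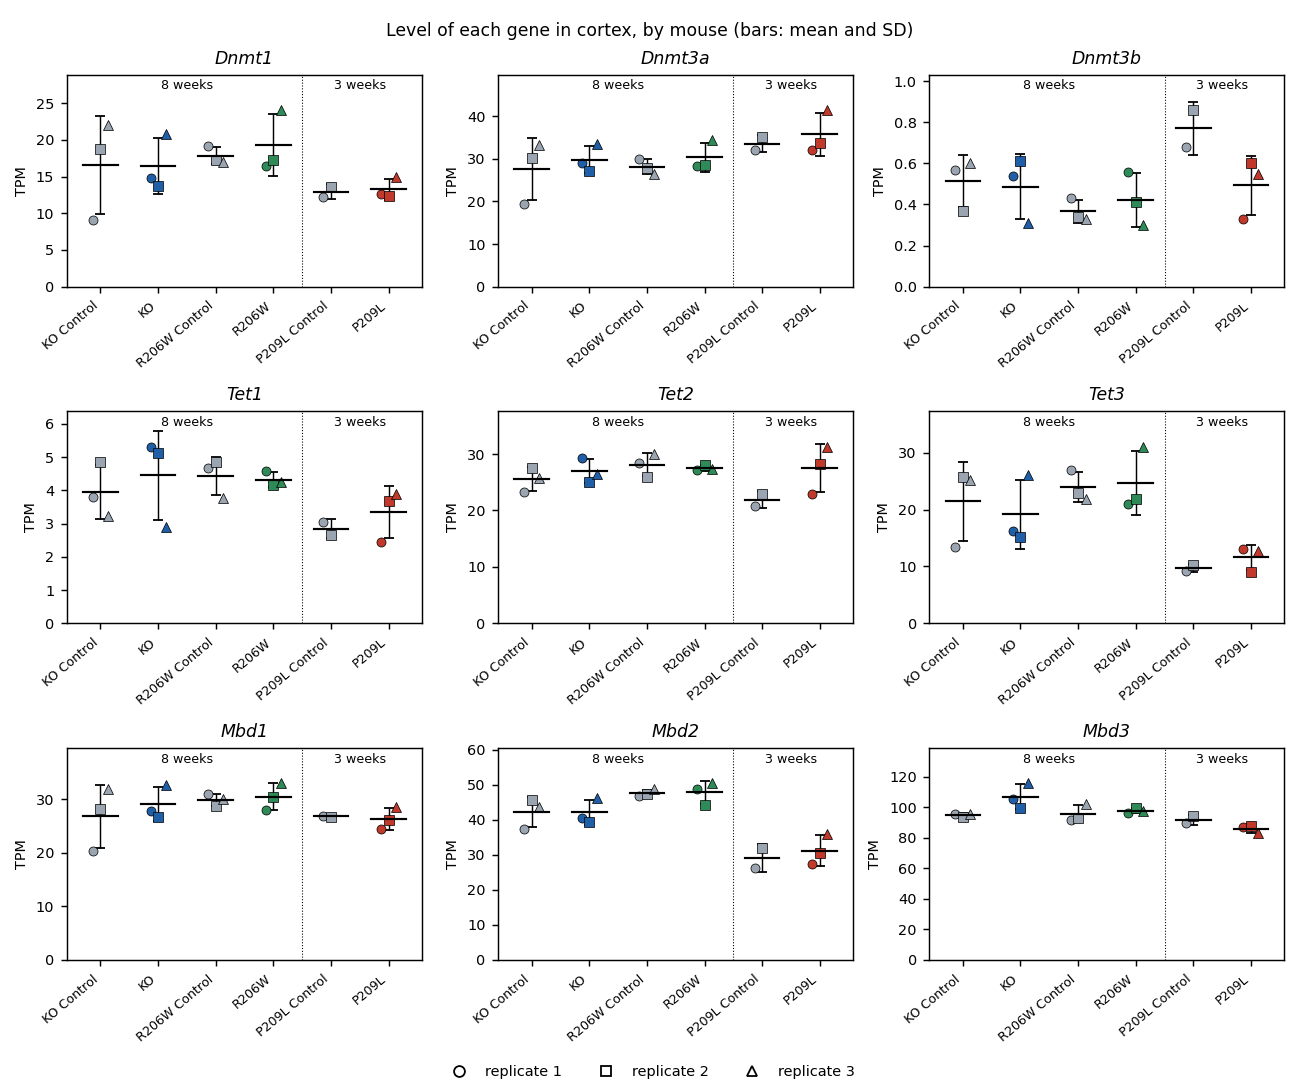
Level of each of the 9 genes in TPM (vertical axes start at 0) in each mouse of the 6 groups, with the replicate number as the marker shape, the group mean as a horizontal line and the SD as an error bar; gray marks wild-type controls, and the dotted line parts 8-week from 3-week mice. Tet3 and Mbd2 are lower in all 5 mice at 3 weeks than in any of the 12 at 8 weeks, Mbd3 exceeds the other genes in every mouse, and Dnmt3b is under 1 TPM throughout.

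The wild-type mice of both ages were compared to see which of these genes differ in level between 3 and 8 weeks. Tet3 and Mbd2 were lower at 3 weeks, at 42.6% and 64.8% of their 8-week levels, Tet1, Tet2 and Dnmt1 were lower by less and did not pass the test, and Dnmt3a was higher without passing. Of the 8 genes tested, 2 passed at an adjusted p under 0.05, both lower, and 6 did not (limma on log2(TPM + 1), adjusted by Benjamini-Hochberg over all 16265 genes tested; Dnmt3b was under the mean of 1 TPM that the test required). In the same comparison 36.1% of all genes passed, 11.3% higher and 24.8% lower, so 2 of 8 lower was close to the background. The median log2 change was -0.31 for the 8 genes and -0.12 for all genes. With size factors that bring the median of all genes to about 0, 21.5% of all genes passed higher and 22.6% lower, and 3 of the 8 genes passed, Dnmt3a higher and Tet3 and Mbd2 lower.

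Among the writers, Dnmt3a, the de novo enzyme of neurons, was at 32.2 and 35.03 TPM in P209L Control 1 and 2. In the 8-week controls it was at 19.5, 30.1 and 33.3 TPM in KO Control 1 to 3 and at 30.02, 27.96 and 26.5 TPM in R206W Control 1 to 3. The groups overlapped because of KO Control 3, and KO Control 1 was the lowest mouse. Its log2 change of 0.28 (SE 0.164, adjusted p = 0.202 in limma) was 0.40 above the median of all genes, and it was 0.16 without KO Control 1. It passed with median-of-ratios size factors (0.41, adjusted p = 0.00281) and with quantile normalization (0.45, adjusted p = 0.00119), also without KO Control 1 with size factors (0.37, adjusted p = 0.00286), so the call for Dnmt3a depended on the scaling, while its direction was the same in each.

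Dnmt1, the maintenance enzyme, was at 12.2 and 13.6 TPM in the 3-week controls. Its 8-week values were 9.06, 18.7 and 22.0 TPM in KO Control 1 to 3 and 19.2, 17.3 and 17.04 TPM in R206W Control 1 to 3. KO Control 1 was the only 8-week control below the 3-week mice. The log2 change was -0.35 (SE 0.241, adjusted p = 0.275), and without KO Control 1 it was -0.53 and passed (adjusted p = 0.0142). Among the runs that left out 1 mouse, the run without KO Control 1 called the most of all genes. Dnmt3b, the other de novo enzyme, was at 0.68 and 0.86 TPM in the 3-week controls and between 0.33 and 0.60 TPM in the 8-week controls. The groups did not overlap (exact permutation test of 2 mice against 6, two-sided p = 0.0357, the smallest that its 28 splits allow), but these levels were under 1 TPM and the depth behind them is unknown. Of the genes tested in limma, 38.2% did not overlap between these groups.

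Among the erasers, Tet3 showed the largest difference of the 8 genes. It was at 9.15 and 10.2 TPM in P209L Control 1 and 2. In the 8-week controls it was at 13.4, 25.8 and 25.1 TPM in KO Control 1 to 3 and at 27.0, 22.9 and 21.9 TPM in R206W Control 1 to 3. Both 3-week mice lay below all 6 older mice, and KO Control 1 was the nearest of these. In the same comparison 38.2% of all genes did not overlap between the ages. The means were 9.67 ± 0.728 TPM (SD, n = 2) and 22.7 ± 4.94 TPM (SD, n = 6), a log2 change of -1.12 (SE 0.243, adjusted p = 0.00270) and -0.9995 relative to the median of all genes. Without KO Control 1 the change was -1.27, and the call held in each alternative run, with an adjusted p of 0.0417 when P209L Control 1 was left out and 0.0265 without P209L Control 2, the mouse with choroid plexus RNA.

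The other erasers were lower at 3 weeks by less. Tet1 was at 3.05 and 2.65 TPM in the 3-week controls and between 3.22 and 4.86 TPM in the 8-week controls, a log2 change of -0.42 (SE 0.187, adjusted p = 0.0884). Tet2 was at 20.9 and 22.9 TPM against 23.3 to 30.1 TPM, a log2 change of -0.28 (SE 0.116, adjusted p = 0.0719). Neither gene overlapped between the ages in controls (exact permutation p = 0.0357 each), as was also the case for 38.2% of all genes. Tet2 passed without KO Control 1 (-0.31, adjusted p = 0.0268 in limma), where more of all genes passed too. It also passed with mitochondrial genes removed (-0.29, adjusted p = 0.0429), where 28.3% of all genes passed lower, against 24.8% in the main fit. Tet2 did not pass with size factors (-0.14, adjusted p = 0.255) or with quantile normalization (-0.092, adjusted p = 0.498). The intervals of the 3 log2 changes were -1.64 to -0.60 for Tet3, -0.82 to -0.026 for Tet1 and -0.53 to -0.032 for Tet2 (95%, limma), and the differences between the 3 changes were not tested.

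Among the readers, Mbd2 was the one that passed. It was at 26.4 and 31.8 TPM in P209L Control 1 and 2. The 8-week controls had 37.5, 45.7 and 43.6 TPM in KO Control 1 to 3 and 46.8, 47.3 and 48.7 TPM in R206W Control 1 to 3. The ages did not overlap, as was also the case for 38.2% of all genes. The means were 29.1 ± 3.88 TPM (SD, n = 2) and 44.9 ± 4.04 TPM (SD, n = 6), a log2 change of -0.61 (SE 0.118, adjusted p = 0.00128) and -0.49 relative to the median of all genes. The call held in each alternative run, with an adjusted p of 0.0443 when P209L Control 1 was left out and 0.00690 without P209L Control 2.

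Mbd1 and Mbd3 differed little between the ages. Mbd1, a reader that also binds unmethylated CG through its CXXC domain, was at 26.9 and 26.6 TPM at 3 weeks, inside the range of 20.4 to 31.9 TPM of the 8-week controls (log2 change -0.066, SE 0.137, adjusted p = 0.734). Mbd3 was at 89.7 and 94.3 TPM against 91.8 to 102 TPM (log2 change -0.053, SE 0.086, adjusted p = 0.654). The 95% intervals were -0.36 to 0.22 for Mbd1 and -0.23 to 0.13 for Mbd3. Both changes turned positive with size factors or quantile normalization, where they did not pass either, so no direction can be given for these genes.

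With the mutant mice included, the P209L mice sat with their controls for the genes that differed by age. Tet3 in P209L 1 to 3 was at 13.1, 8.96 and 12.7 TPM, and Mbd2 was at 27.4, 30.4 and 35.9 TPM. All 5 mice of 3 weeks were below all 12 mice of 8 weeks for both genes, although the gap for Tet3 was small between P209L 1 (13.1 TPM) and KO Control 1 (13.4 TPM). The exact permutation p over the 6188 splits of 5 mice against 12 was 0.000323 for Tet3 and 0.000162, the smallest it can give, for Mbd2. Both genes had already passed in the controls, which are among these mice, so these exact p-values are not a separate test of them. How many of all genes separate these 5 mice from the 12 was not counted. In the controls alone, 38.2% of all genes did not overlap between the ages. In limma, with both 3-week groups set against the 4 groups of 8 weeks, the log2 change was -0.98 (SE 0.161, adjusted p = 0.000118) for Tet3 and -0.56 (SE 0.078, adjusted p = 2.78e-05) for Mbd2, and 57.7% of all genes passed (2990 higher and 6402 lower). Tet1 (-0.37, adjusted p = 0.0186) and Mbd3 (-0.15, adjusted p = 0.0341) passed as well, but neither passed with size factors, where Tet1 was at -0.24 (adjusted p = 0.108) and Mbd3 at 0.012 (adjusted p = 0.893). Without this scaling Dnmt3a (0.26, adjusted p = 0.0539), Dnmt1 (-0.36, adjusted p = 0.0622), Tet2 (-0.14, adjusted p = 0.135) and Mbd1 (-0.12, adjusted p = 0.283) did not. Among the 24 alternatives of the age comparison, Dnmt3a passed higher in 4 (lowest adjusted p = 5.04e-05 in limma). Tet2 passed lower in 4 of them and Dnmt1 lower in 2. Dnmt3b overlapped between the ages once the P209L mice were included (exact permutation p = 0.0580).

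**Figure D2:**
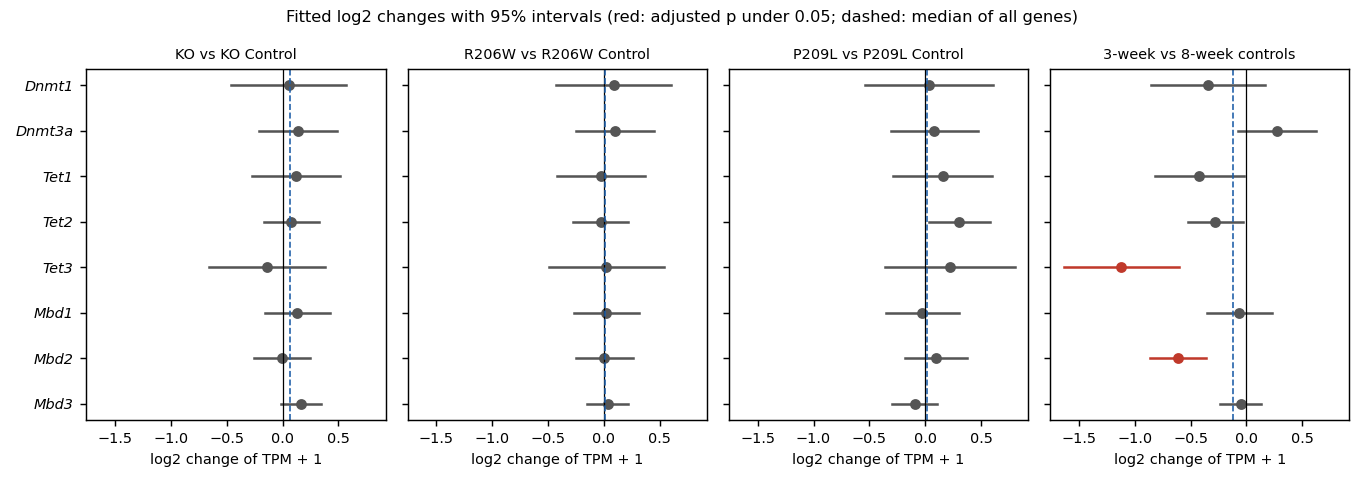
Fitted log2 change of TPM + 1 (horizontal axis) with its 95% interval for the 8 genes tested, in each mutant group against its own controls and in 3-week against 8-week controls; red marks an adjusted p under 0.05 over all genes, and the dashed line is the median of all genes. Tet3 (-1.12) and Mbd2 (-0.61) are the red points, both in the comparison of ages, and the intervals of the KO and R206W comparisons all include 0.

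Other measures moved with age in the same mice. Excitatory neuron markers passed lower at 3 weeks for 3 of 4 genes, with summed levels of 624 to 648 TPM in P209L Control against 588 to 992 TPM in KO Control and 832 to 941 TPM in R206W Control, and microglia markers passed lower for 3 of 4, at 85.7 to 103 TPM against 120 to 144 and 135 to 146 TPM. Oligodendrocyte markers passed higher for 3 of 4, at 3199 to 4787 TPM against 1995 to 2616 and 2580 to 2643 TPM, but the P209L mice of the same age, at 2040 to 2841 TPM, lay within the 1995 to 3047 TPM of all 8-week mice. Hemoglobin genes passed higher for 2 of 2, at 1975 to 3521 TPM against 466 to 642 and 489 to 852 TPM. In the P209L mice the sums were 621 to 797 TPM for excitatory neurons, 78.5 to 92.9 TPM for microglia and 1518 to 2213 TPM for hemoglobin. No marker of these 4 lists was at 0 in any mouse. In this comparison 36.1% of all genes passed. Of the other lists, 1 of 4 astrocyte and 1 of 4 interneuron markers passed lower. Among oligodendrocyte precursor markers 1 of 4 passed higher, and among choroid plexus markers 1 of 2. Of 4 endothelial markers 1 was higher and 1 lower, and 0 immature neuron, leptomeningeal fibroblast or striatum markers passed. The part of the marker lists in the levels of Tet3 and Mbd2 was not tested. The mitochondrial share of the 3-week mice, 12.5% to 14.1%, lay within the 8-week range.

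Within each mouse, a ratio inside each family was set against age, as a description that rests on the levels already given. The ratio of Dnmt3a to Dnmt1 was between 2.55 and 2.78 in the 5 mice of 3 weeks and between 1.43 and 2.16 in the 12 mice of 8 weeks, with no overlap. How many pairs of genes have a ratio that separates the ages was not counted. Tet2 stood at 1.75 to 3.16 times Tet3 at 3 weeks and at 0.883 to 1.81 times Tet3 at 8 weeks. Mbd3 stood at 2.31 to 3.41 times Mbd2 at 3 weeks and 1.93 to 2.60 times at 8 weeks. The last 2 ratios overlapped between the ages, the former through KO 1, and a ratio within a mouse does not change with the scaling of that mouse. The summed level of the 3 Dnmt genes was 48.6 ± 5.02 TPM (SD, n = 5) at 3 weeks and 47.0 ± 7.73 TPM (SD, n = 12) at 8 weeks, that of the 3 Tet genes 39.2 ± 5.67 and 53.6 ± 6.07 TPM, and that of the 3 Mbd genes 145 ± 5.03 and 173 ± 9.95 TPM. Unlike the ratios, these sums change with the scaling of each mouse. Most of the Mbd sum was Mbd3, whose direction with age depended on the scaling.

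**Figure D3:**
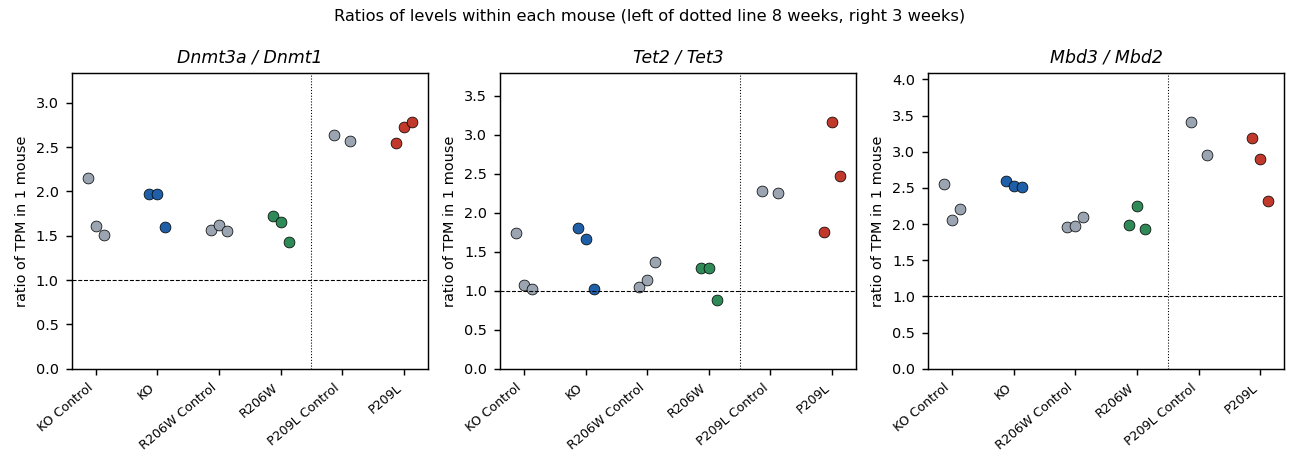
Ratio of the TPM of 2 genes of a family within each mouse (vertical axes start at 0, dashed line at 1), by group, with 8-week groups left and 3-week groups right of the dotted line. The Dnmt3a to Dnmt1 ratio is at least 2.55 in the 3-week mice and at most 2.16 in the 8-week mice, while the other ratios shift with some overlap.

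The KO mice were compared with their controls to see whether loss of Hnrnph2 moves these genes. None of the 8 genes passed, with 0 of 8 also at an unadjusted p under 0.05, beside 0.00615% of all genes called and 4.08% at an unadjusted p under 0.05. The log2 changes lay between -0.14 (Tet3) and 0.16 (Mbd3), with a median of 0.098 against 0.064 for all genes. Mbd3, the NuRD subunit, was at 106, 99.7 and 116 TPM in KO 1 to 3 and at 95.7, 94.1 and 96.0 TPM in KO Control 1 to 3. It was the one gene whose groups did not overlap (107 ± 8.24 against 95.2 ± 1.05 TPM, log2 change 0.16, SE 0.086, adjusted p = 0.999, exact permutation p = 0.1, the smallest that 3 against 3 allows), which was also so for 6.25% of all genes.

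Tet3 and Dnmt1 varied between mice inside both groups of the KO line. Tet3 was at 16.2, 15.1 and 26.1 TPM in KO 1 to 3, against 13.4, 25.8 and 25.1 TPM in the controls, and Dnmt1 was at 14.8, 13.8 and 20.8 TPM against 9.06, 18.7 and 22.0 TPM. KO 1, KO 2 and KO Control 1 were the 3 lowest of the 12 mice of 8 weeks for both genes, and they had the 3 highest mitochondrial shares of all mice (15.4%, 15.3% and 20.1%); the part of this share in the levels was not tested. The Tet3 change of -0.14 (SE 0.243, 95% interval -0.66 to 0.38) was -0.43 without KO Control 1 and 0.016 without KO Control 2. With weights for sample quality, in which KO Control 1 counted least, it was -0.60 and passed (adjusted p = 0.0146). In that run 2156 of all 16265 genes passed, against 1 in the main fit. The Dnmt1 change of 0.053 was -0.31 without KO Control 1, 0.29 without KO Control 3 and -0.34 with these weights. Without KO Control 1 the changes of Dnmt3a (0.14) and Mbd1 (0.13) turned to -0.087 and -0.046, so no direction can be given for these genes in KO.

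R206W mice showed no difference from their controls that passed for any of the 8 genes, with 0 of 8 at an unadjusted p under 0.05, beside 0.0369% of all genes called and 2.19% at an unadjusted p under 0.05. The log2 changes lay between -0.027 and 0.10, and 0 of the 8 genes had groups that did not overlap, against 16.2% of all genes. Dnmt3a had the largest change, at 28.3, 28.5 and 34.4 TPM in R206W 1 to 3 and 30.02, 27.96 and 26.5 TPM in the controls (log2 change 0.10, SE 0.164, adjusted p = 1, 95% interval -0.25 to 0.45). Without R206W 3, the highest of these mice, the Dnmt3a change was 0.014. Tet2, at 27.1, 28.1 and 27.4 TPM in R206W 1 to 3, lay within the 26.0 to 30.1 TPM of its controls.

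In P209L mice 0 of the 8 genes passed and 1, Tet2, had an unadjusted p under 0.05, beside 0.0984% of all genes called (0.0799% higher and 0.0184% lower) and 7.46% at an unadjusted p under 0.05. Tet2 was at 22.9, 28.3 and 31.3 TPM in P209L 1 to 3 and at 20.9 and 22.9 TPM in the controls, with P209L 1 inside the range of the controls. Its means were 27.5 ± 4.28 TPM (SD, n = 3) and 21.9 ± 1.46 TPM (SD, n = 2), a log2 change of 0.31 (SE 0.130, 95% interval 0.030 to 0.58, adjusted p = 0.603 in limma). Tet3 was at 11.6 ± 2.27 against 9.67 ± 0.728 TPM (log2 change 0.22, SE 0.272, adjusted p = 0.941). Without P209L Control 2 the changes were 0.37 for Tet2 and 0.29 for Tet3, and neither passed.

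Mbd3 was lower in each P209L mouse, at 87.5, 88.1 and 83.0 TPM, than in the controls, at 89.7 and 94.3 TPM, but did not pass (log2 change -0.093, SE 0.096, adjusted p = 0.927; exact permutation p = 0.1, the smallest that 3 against 2 allows). Groups that did not overlap were found for 24.9% of all genes in this small design. Dnmt3b was at 0.33, 0.60 and 0.55 TPM in P209L 1 to 3, all below the 0.68 and 0.86 TPM of the controls (exact permutation p = 0.1), and it was not tested in limma. The other 5 genes tested overlapped between P209L and control mice.

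The KO and R206W effects were then set against each other, since both lines were sampled at 8 weeks. The differences between the effects lay between -0.16 and 0.15 on the log2 scale, and 0 of the 8 genes passed (0 at an unadjusted p under 0.05), beside 0.0307% of all genes called and 2.29% at an unadjusted p under 0.05. This range rested on KO Control 1, without which the difference was -0.46 for Tet3 and -0.39 for Dnmt1 and 0 of the 8 passed. Between the wild-type mice of these lines, R206W Control against KO Control, 0 of the 8 passed (0 at an unadjusted p under 0.05), beside 0% of all genes called and 3.12% at an unadjusted p under 0.05. The 8 log2 changes had a median of 0.16 against 0.13 for all genes, and 4 of them were below 0 without KO Control 1. Mbd2 did not overlap between these control groups (47.6 ± 1.00 against 42.2 ± 4.25 TPM, exact permutation p = 0.1), as for 9.07% of all genes. Without KO Control 1, 0 of the 8 passed as well.

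Genes that work with these 9 were followed in 7 lists of 56 genes, 49 of which were tested. In the comparison of ages in controls 4 of the 49 passed higher and 9 lower, beside 11.3% and 24.8% of all genes, and in each of the KO, R206W and P209L comparisons, the KO minus R206W difference and the comparison of control groups 0 of the 49 passed. Of 6 further genes, listed as methyl-CpG readers or members of the MBD family, 1 was higher and 4 were lower at 3 weeks. Their median log2 change was -0.75 against -0.12 for all genes. With size factors 1 was higher and 3 were lower, beside 21.5% and 22.6% of all genes. With 6 genes in the list, nothing particular to it is read from these counts.

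The zinc finger reader Zbtb4 was at 22.9 ± 0.0354 TPM (SD, n = 2) at 3 weeks and 52.7 ± 6.79 TPM (SD, n = 6) at 8 weeks (log2 change -1.16, SE 0.136, adjusted p = 4.23e-05). Zbtb33, also called Kaiso, was at 8.16 ± 1.27 against 18.9 ± 2.16 TPM (log2 change -1.12, adjusted p = 8.22e-05), and the related Zbtb38 at 7.88 ± 0.424 against 18.5 ± 3.75 TPM (log2 change -1.11, adjusted p = 0.000298). Mbd4 was the other gene of this list that passed lower, Mbd6 was the one that passed higher, and Mbd5 did not pass. Mbd4, Mbd5 and Mbd6 were named after their values were seen. Zbtb4, Zbtb33 and Zbtb38 passed lower in each alternative run, with the Zbtb33 change between -1.26 and -0.66. Zbtb33 was higher in the P209L mice of 3 weeks, at 12.1 ± 0.652 TPM, than in their controls without passing (log2 change 0.52, adjusted p = 0.364 in limma).

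The NuRD complex, which Mbd2 or Mbd3 joins, had 1 of 13 other subunits higher and 3 lower, with a median of -0.10 against -0.12 for all genes, and 2 higher and 3 lower with size factors, so its counts and median lay near those of all genes. Mta3, a scaffold subunit, was at 20.4 ± 2.64 TPM at 3 weeks and 47.8 ± 7.56 TPM at 8 weeks (log2 change -1.18, adjusted p = 8.18e-05). The deacetylase Hdac1 was higher, at 33.7 ± 1.06 against 23.3 ± 2.64 TPM (log2 change 0.53, adjusted p = 0.00531), and Gatad2b, which links the MBD protein to the remodeler, was lower, at 16.97 ± 0.191 against 30.3 ± 6.41 TPM (log2 change -0.77, adjusted p = 0.00599). Gatad2a also passed lower. The calls for Hdac1 and Gatad2b were lost when P209L Control 1 was left out (adjusted p = 0.0631 and 0.0514), and that for Gatad2b also without P209L Control 2 (0.0604).

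Of the base excision and TET partner genes, 2 of 12 were higher and 1 lower, beside 11.3% and 24.8% of all genes, and 4 were higher and 1 lower with size factors. Neil1, a DNA glycosylase, was at 8.29 ± 0.0495 TPM at 3 weeks and 4.71 ± 0.658 TPM at 8 weeks (log2 change 0.71, adjusted p = 0.00245). Gadd45g was at 21.0 ± 2.72 against 13.3 ± 3.37 TPM (log2 change 0.65, adjusted p = 0.0270) and Gadd45a at 6.57 ± 3.17 against 16.8 ± 2.97 TPM (log2 change -1.28, adjusted p = 0.00294); both belong to a family of stress-induced genes tied to active demethylation. The Gadd45a call was lost without P209L Control 2 (-0.84, adjusted p = 0.105) and the Gadd45g call was lost in 6 of 24 alternatives, among them 4 of the 8 that left out 1 mouse (adjusted p of 0.0511 to 0.220).

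The remaining lists held 1 call. Usp7, the deubiquitinase that stabilizes Dnmt1 and its partner Uhrf1, was at 72.5 ± 4.55 TPM at 3 weeks and 109 ± 16.8 TPM at 8 weeks (log2 change -0.56, adjusted p = 0.00753), the 1 of 5 maintenance partners that passed; the call was lost without P209L Control 1 (adjusted p = 0.0912). The 6 methionine cycle genes, which supply the methyl donor, the 6 proliferation genes tested and Trdmt1, the RNA methyltransferase once named Dnmt2, gave 0 calls in either direction. Uhrf1, Dnmt3l, Neil3, Mki67, Top2a, Cdk1 and Aurkb were under a mean of 1 TPM and were not tested, and Uhrf1 did not exceed 0.89 TPM in any mouse.

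**Figure D4:**
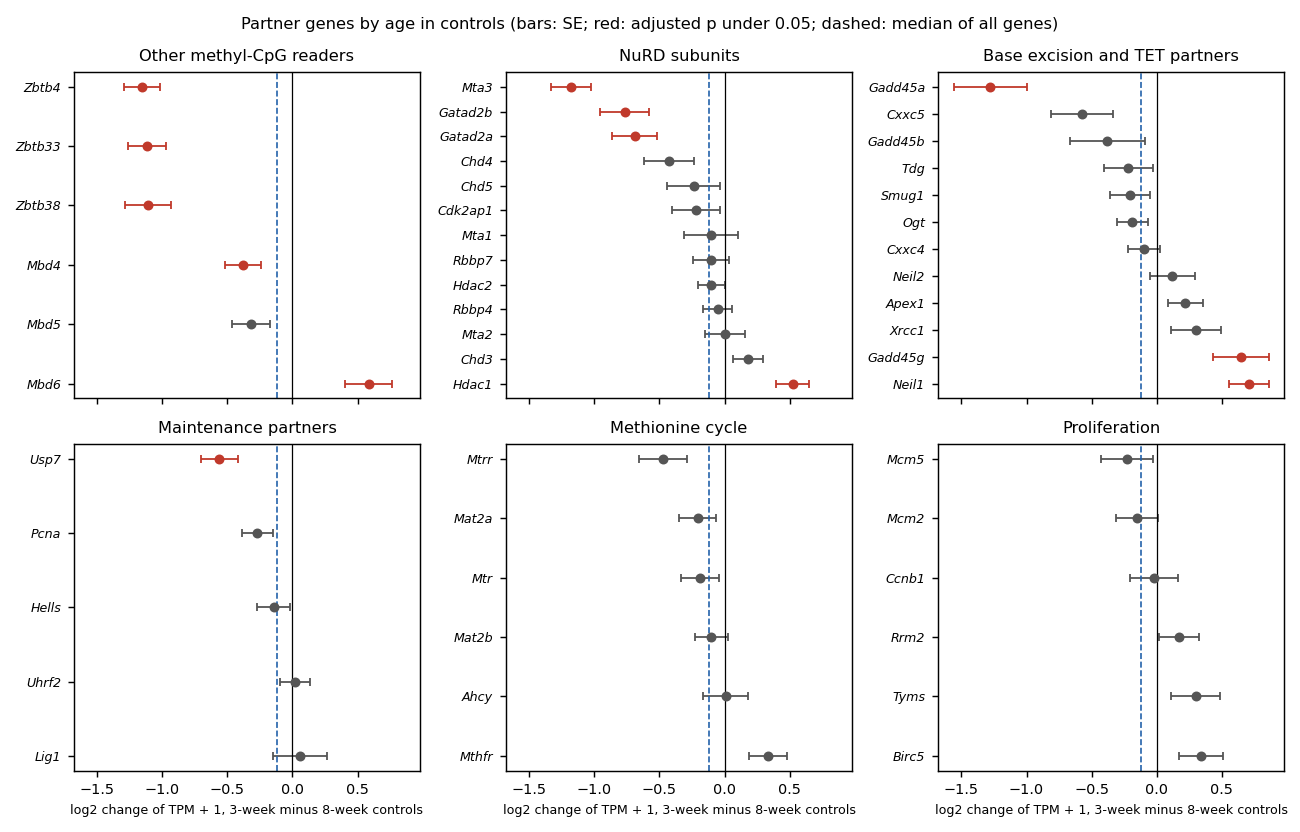
Log2 change of TPM + 1 in 3-week against 8-week controls (horizontal axis) for the tested genes of 6 partner lists, with the SE as error bars, red for an adjusted p under 0.05 over all genes and a dashed line at the median of all genes. Zbtb4, Zbtb33, Zbtb38 and Mta3 lie at -1.11 to -1.18, Hdac1 (0.53) and Neil1 (0.71) lie to the right, and no methionine cycle or proliferation gene is red.

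For each gene, the tested genes whose log2 profile over the 17 mice was most like its own were found by the root mean square difference of centered values. For Tet3, whose own values varied by 0.53 around their mean, they were Bcor (0.080), Mn1 (0.085) and Fam129b (0.097). For Mbd2, which varied by 0.29, they were Ankrd26 (0.065), Gab2 (0.073) and Cdc42bpa (0.079). Dnmt1, which varied by 0.33, lay closest to Madd (0.051), Foxj2 (0.064) and Pde4dip (0.067), and Dnmt3a, at 0.22, to Rfxap (0.066), Mau2 (0.068) and Pick1 (0.069).

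Tet1, which varied by 0.26, lay closest to Ipp (0.086), Lrch2 (0.10) and Zfp26 (0.12), and Tet2, at 0.15, to Gm21811 (0.085), Cep135 (0.085) and Zfp445 (0.087). Mbd1, at 0.16, lay closest to Gm16286 (0.040), Cpsf7 (0.049) and Ppif (0.056), and Mbd3, at 0.11, to Ppp1r16a (0.072), Ctdsp1 (0.076) and 1500002C15Rik (0.077). For Tet2 and Mbd3 these differences are large beside the gene's own variation, so no gene lay close to them. None of the 8 genes tested was among the 3 nearest genes of another.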

How the data were processed

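Total RNA from frozen cortex was made into libraries with a TruSeq stranded total RNA kit per the labels. The authors deposited gene-level TPM values with 1 column for each of 17 mice. The submitters' processing notes name Trim Galore, STAR 2.7.1a, GATK 4.0.4.0, RSEM and the build mm10, and the annotation is not given in the sources used here. TPM keeps no depth, so neither counting error nor a detection limit can be given, and a shift in a few abundant transcripts moves the share of the rest.

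Entries that repeat a symbol (120) were summed. Genes averaging at least 1 TPM over the 17 mice (16265 genes) were fitted as log2(TPM + 1) in limma 3.58.1 (R 4.3.3, eBayes with trend=TRUE, two-sided). The model had 6 group means and a residual spread common to all groups. Fold changes on this scale understate those of low genes such as Tet1. Benjamini-Hochberg adjustment ran over all genes of a comparison, with a threshold of 0.05. Age was tested as P209L Control minus the mean of KO Control and R206W Control. Exact permutation tests of TPM enumerated all splits of the mice. The fit was also run on simulated data with independent noise for each gene and no shift shared by a whole mouse. That run cannot show how the fit handles a mouse such as KO Control 1. In GENCODE M21, 98.3% of the symbols were found.

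The 9 genes and the lists were chosen with earlier results of these data known, and 1 gene of the lists is not reported here. Named besides the 9 were Hnrnph2, up to 3 genes of each list with the smallest p among those that passed in a comparison, and for each of the 8 tested the 3 genes of most similar profile. Alternatives changed the pseudocount (0.1 and 0.5), the filter (none, or a mean of 5 TPM), the scaling (size factors by the median of ratios, quantiles, or TPM without mitochondrial genes), the groups in the fit, the control groups used, a replicate block, robust=TRUE and sample weights, and left out each mouse in turn. Deviations of same-numbered mice of a line had correlations from -0.113 to 0.331. In the KO line they were 0.117, -0.058 and 0.331 for replicates 1 to 3. The numbers were not taken as pairs in the main fit.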

Additional observations from a re-analysis of the deposited data

Results flagged for a closer look

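Levels of each of the 9 genes in the 6 wild-type mice of 8 weeks were checked for a mouse far from the others by Dixon's ratio of the gap to the range, which chance passes in about 1 of 20 groups. In 2 of the 9 genes 1 mouse passed, and it was KO Control 1 in both. Tet3 was at 13.35 TPM in this mouse, with the nearest of the other 5 at 21.9 TPM. Mbd1 was at 20.41 TPM, with the nearest at 28.07 TPM. The same mouse was also the lowest of the 6 for Dnmt1, Dnmt3a, Tet2 and Mbd2, and 20.1% of its TPM was mitochondrial; the part of this share in the levels was not tested.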

How the results depend on the processing

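Tet3 and Mbd2 passed lower at 3 weeks in all 24 alternatives each, with log2 changes from -1.27 to -0.83 and from -0.74 to -0.40. With sample weights (0.0818 for KO Control 1, up to 4.05), 1 of the 8 genes passed in KO (Tet3, -0.60; 2156 of all 16265 genes) and 5 in the age comparison, with 26 partner genes (9471 of all genes, against 5876). With both 3-week groups against the groups of 8 weeks, 4 of the 8 and 24 partner genes passed (9392 of all genes). Leaving out 1 mouse at a time gave 2 to 4 of the 8 genes and 7 to 22 partner genes in the age comparison (2719 to 8181 of all genes), with the most without KO Control 1 and the fewest partner genes without P209L Control 1 (7) or 2 (8), where the lone control is assumed to vary like the other groups. These ranges were -0.43 to 0.016 for Tet3 in KO and -0.15 to 0.00035 for Mbd1 with age. In the age comparison Mbd1 and Mbd3 turned positive with size factors (0.071 and 0.087) and quantile normalization (0.11 and 0.095), and Mbd1 also with KO Control as the only older group (0.021) and with the replicate block (0.0011). The replicate block gave 3 calls among the 8 genes, adding Tet1 (-0.49, adjusted p = 0.0477 in limma). Size factors combined with leaving out KO Control 1, an alternative chosen after seeing the data, gave 21 partner genes, with Mbd1 at 0.054 and Mbd3 at 0.16. Size factors combined with both 3-week groups, also chosen after seeing the data, gave 28 partner genes, with Tet2 at 0.019, Mbd1 at 0.041 and Mbd3 at 0.012. The causes were not tested. A filter at a mean of 5 TPM removed Tet1. In the other 34 pairs of gene and comparison, 0 of 616 alternative values passed and 78 changed sign. Depth is unknown, which leaves Dnmt3b without a counting error.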
